A study of Mus musculus with 9 samples.

Results

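Slow fibre thin and thick filament genes are described here as a set of 10 named genes. The set also holds genes of the Z-disc, a calcium pump and myoglobin. Their rows were taken from each count file by the Ensembl ID that GENCODE M21 (mouse build GRCm38) pairs with the symbol. All 10 were found among the 53379 gene IDs counted: Tnnc1, Tnnt1, Tnni1, Myl2, Myl3, Atp2a2, Myoz2, Tpm3, Csrp3 and Mb. RNA sequencing of mouse knee joints gave 9 libraries in 3 groups of 3. The Non surgery group held joints without an operation. In the Luc and PC2 groups the anterior cruciate ligament of male C57BL/6 mice was transected at 8 weeks of age, and a lentivirus entered the joint cavity 1 week after surgery. Collection of these joints followed 8 weeks after the virus. The virus expressed Luc in one group and PC2 in the other. The strain, sex and age of the Non surgery mice were not stated separately in the sources used here, nor was the number of mice in a pool. Each group was a single RNA pool read in 3 technical repeats, and p-values measure technical spread only and say nothing of differences between mice.

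Skeletal muscle contracts when calcium binds troponin C on the thin filament, which shifts tropomyosin and lets the myosin heads of the thick filament pull on actin. Slow (type I) fibres build this machinery from their own isoforms, contract slowly, resist fatigue and rely on oxidative metabolism. Many of the same isoforms serve the heart. Most hindlimb muscles of the mouse around the knee are rich in fast fibres, and slow fibres are a minority there.

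Each library held 17835989 to 19004316 counts in genes. Levels are CPM, counts relative to library sizes scaled with TMM factors, and a gene rose or fell where its Benjamini-Hochberg adjusted p over the 17478 genes tested was under 0.05 in edgeR's quasi-likelihood test. Skeletal muscle markers were abundant in every library: Acta1, Ckm, Myh1 and Myh4 summed to 37280 to 38520 CPM in Non surgery libraries, 15510 to 15870 in Luc and 18000 to 18110 in PC2. Chondrocyte markers (Col2a1, Acan, Sox9 and Comp) moved the other way against Non surgery. They summed to 641 to 748 CPM in Non surgery libraries, 4136 to 4221 in Luc and 6413 to 6558 in PC2. Both the muscle and the chondrocyte sums were higher in PC2 than in Luc. Of 10 cardiac muscle markers, Nppb and Myl7 had 0 counts in all 9 libraries, Nppa had 0 to 2 counts, and the sum was 27.9 to 28.6 CPM in Non surgery libraries, 38.7 to 41.4 in Luc and 43.2 to 46.9 in PC2. PC2 below means the libraries labelled so.

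The promoters of 4 of the genes are shown first. All 4 lost most of their counts in operated joints. Between PC2 and Luc, Tnnc1 and Myoz2 rose, Myl3 fell and Tnni1 did not pass. Tnnt1, Csrp3, Myl2 and Mb, whose windows are not printed, fell in operated joints and were higher in PC2 than in Luc. The stretches are the 250 bases before the RefSeq start site (GRCm38.p6), 5′ to 3′ on the strand of the gene. Capitals mark matches, on either strand, to 4 motifs: CCACCC, the CACC box described in slow and oxidative muscle genes; CATTCC, the core of the M-CAT element bound by TEAD factors; the MEF2 consensus; and the CArG box bound by SRF.
Tnnc1, chr14:31208062-31208311, plus strand: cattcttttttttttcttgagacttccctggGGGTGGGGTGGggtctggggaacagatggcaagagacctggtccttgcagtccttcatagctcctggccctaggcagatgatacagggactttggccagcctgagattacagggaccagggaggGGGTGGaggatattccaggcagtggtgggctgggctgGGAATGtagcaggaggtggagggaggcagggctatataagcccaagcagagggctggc
Tnni1, chr1:135799171-135799420, plus strand: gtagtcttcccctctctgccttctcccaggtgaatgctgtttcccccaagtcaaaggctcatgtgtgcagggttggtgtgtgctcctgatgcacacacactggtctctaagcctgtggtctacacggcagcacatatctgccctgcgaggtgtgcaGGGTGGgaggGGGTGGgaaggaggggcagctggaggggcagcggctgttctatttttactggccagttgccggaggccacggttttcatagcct
Myl3, chr9:110763428-110763677, plus strand: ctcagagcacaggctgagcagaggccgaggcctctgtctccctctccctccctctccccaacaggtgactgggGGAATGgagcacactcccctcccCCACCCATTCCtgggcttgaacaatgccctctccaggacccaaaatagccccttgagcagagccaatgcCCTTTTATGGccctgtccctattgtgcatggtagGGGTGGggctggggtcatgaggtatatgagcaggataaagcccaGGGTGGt
Myoz2, chr3:123034988-123035237, minus strand: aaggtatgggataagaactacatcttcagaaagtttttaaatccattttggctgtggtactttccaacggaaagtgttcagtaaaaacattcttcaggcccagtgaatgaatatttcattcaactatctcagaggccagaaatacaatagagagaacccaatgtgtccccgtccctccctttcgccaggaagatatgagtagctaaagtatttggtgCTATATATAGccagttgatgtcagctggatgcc

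Tnnc1 held 3 copies of CCACCC, 2 of them overlapping, and 1 CATTCC. In Tnni1 there were 2 copies of CCACCC and none of the other 3 motifs. The Myl3 stretch held 3 copies of CCACCC, 2 of CATTCC, 1 of each overlapping in the same run of capitals, and the only CArG box found. Myoz2 held the only MEF2 match, from -33 to -24 relative to the start site. RefSeq windows of 300 bases (250 before to 50 after a start site) matched 9 of the 10 genes, all but Atp2a2, with 15 windows in all, some of which overlap. CCACCC was found in 10 of the 15 windows (7 of 9 genes), against 31.5% of 32851 windows of all genes. CATTCC was found in 2 of the 15 windows against 14.7% of all, the MEF2 consensus in 1 against 3.19%, and the CArG box in 1 against 1.63%. The E-box letters CANNTG were in all 15 windows and in 72.3% of all. TATAAA was in 2 of the 15 against 13.6%, and AAGGTCA, the half-site of oestrogen-related receptors, in 1 against 4.72%. The RefSeq start sites of Tnni1 and Myl3 lie inside the longer GENCODE spans of these genes. The 2 windows of Myl2 lie 7762 and 8227 bases from the nearest GENCODE start of that gene, so they need not describe its promoter. These matches are a description of letters, not of binding sites.

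Operated joints with the Luc virus were compared with unoperated joints to ask what the operation and injection changed. All 10 slow fibre genes were lower in the Luc libraries than in unoperated joints, and 8 of them were lower by 4.96-fold (Mb) to 12.7-fold (Tnnc1). The other two, Atp2a2 and Tpm3, were lower by 1.28-fold and 1.1-fold, and the direction of Tpm3 flipped when libraries were scaled by size only (0.025 on the log2 scale, adjusted p = 0.573). All 10 genes passed the filter on low counts, and the lowest count of any of them in any library was 21 (Tnnc1), above the filter's 10. Among all genes tested, 58.8% were called in either direction, 31.1% higher and 27.7% lower, 6.32% were called lower by at least 2-fold, and 29.8% had Luc libraries that all lay below the Non surgery libraries. The median log2 fold change was -2.98 over the 10 genes and 0.025 over all genes. In a bulk sample, fewer slow fibres and less of these RNAs per fibre cannot be told apart, nor can the operation, the virus and the pool of tissue.

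All 3 slow troponin subunits of the thin filament fell in Luc, by 8.02-fold (Tnnt1) to 12.7-fold (Tnnc1). Tnnc1 encodes troponin C of slow and cardiac muscle, the calcium sensor (chromosome 14, 31208312 to 31211729). It had 18.9, 19.5 and 19.5 CPM in the Non surgery libraries, 1.82, 1.11 and 1.61 in Luc and 2.3, 2.79 and 2.93 in PC2. The 3 groups did not overlap, with Non surgery highest and Luc lowest. The log2 fold change of Luc against Non surgery was -3.66 ± 0.138 (SE, adjusted p = 5.67e-13, edgeR). Tnni1, slow troponin I, the inhibitory subunit (chromosome 1, 135779434 to 135810989), had 14.2, 17.3 and 16.7 CPM in Non surgery libraries, 1.45, 1.16 and 1.72 in Luc and 1.52, 1.37 and 1.26 in PC2. Luc and PC2 libraries overlapped in this gene, and both lay far below Non surgery. It fell by 3.47 ± 0.149 in Luc (adjusted p = 2.95e-12, edgeR). Tnnt1, slow troponin T, which anchors the complex to tropomyosin (chromosome 7, 4504570 to 4516382), had 46.3, 45.3 and 45.5 CPM in Non surgery libraries, 5.55, 6.28 and 5.22 in Luc and 7.33, 7.04 and 7.33 in PC2. Its change in Luc was -3.00 ± 0.0765 (adjusted p = 3.28e-15, edgeR), and no groups overlapped.

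Both thick filament light chains fell as well, Myl3 by 12.4-fold and Myl2 by 7.75-fold, and the difference between the 2 was not tested. Myl3 encodes the essential light chain of slow and ventricular myosin (chromosome 9, 110741861 to 110769798). Its levels were 95.1, 100.8 and 99.3 CPM in Non surgery libraries, 7.84, 8.24 and 7.64 in Luc and 4.66, 6.44 and 6.55 in PC2, so that PC2 libraries were the lowest. The log2 fold change of Luc against Non surgery was -3.64 ± 0.0767 (adjusted p = 3.18e-16, edgeR). Myl2, the regulatory light chain of the same myosins (chromosome 5, 122100951 to 122113472), had 42.8, 51 and 45.2 CPM in Non surgery libraries, 4.98, 6.6 and 6.35 in Luc and 8.58, 9.63 and 11.3 in PC2. PC2 libraries lay above Luc in this gene, and both below Non surgery. Myl2 fell by 2.95 ± 0.111 in Luc (adjusted p = 5.17e-13, edgeR). A small part of the exon bases of these genes is shared with genes on the other strand, 4.65% in Myl3 (with Pth1r) and 3.08% in Myl2 (with Ccdc63), and the sources used here do not give the strand setting of the counting.

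Z-disc and oxygen-handling genes moved with the filaments. Myoz2 encodes a calcineurin-binding protein of the Z-disc in slow and cardiac muscle (chromosome 3, 123006206 to 123035015). It had 53.6, 55.4 and 57 CPM in Non surgery libraries, 5.97, 5.65 and 6.03 in Luc and 10.2, 8.97 and 9.74 in PC2. The groups stood in the order Non surgery, PC2, Luc with no overlap, and the change in Luc was -3.23 ± 0.0717 (adjusted p = 5.63e-16, edgeR). Csrp3, the muscle LIM protein of the Z-disc (chromosome 7, 48830398 to 48848033), had 66.9, 72.3 and 66.7 CPM in Non surgery libraries, 10.1, 9.4 and 10.4 in Luc and 15.5, 14.8 and 15.2 in PC2. It kept the same order of groups and fell by 2.79 ± 0.0611 in Luc (adjusted p = 5.05e-16, edgeR). Mb, myoglobin, which stores oxygen in slow and in oxidative fast fibres (chromosome 15, 77015487 to 77050670), was the most abundant of the 10. Its levels were 1676, 1748 and 1744 CPM in Non surgery libraries, 353.7, 357.1 and 331.7 in Luc and 424.7, 432.8 and 424.7 in PC2, again in the order Non surgery, PC2, Luc. It fell by 2.31 ± 0.0331 in Luc (adjusted p = 3.96e-18, edgeR). The exons of Mb share 31.9% of their bases with Apol6 and Gm49540 on the other strand, and reads of that stretch cannot be told apart without strand.

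**Figure D1:**
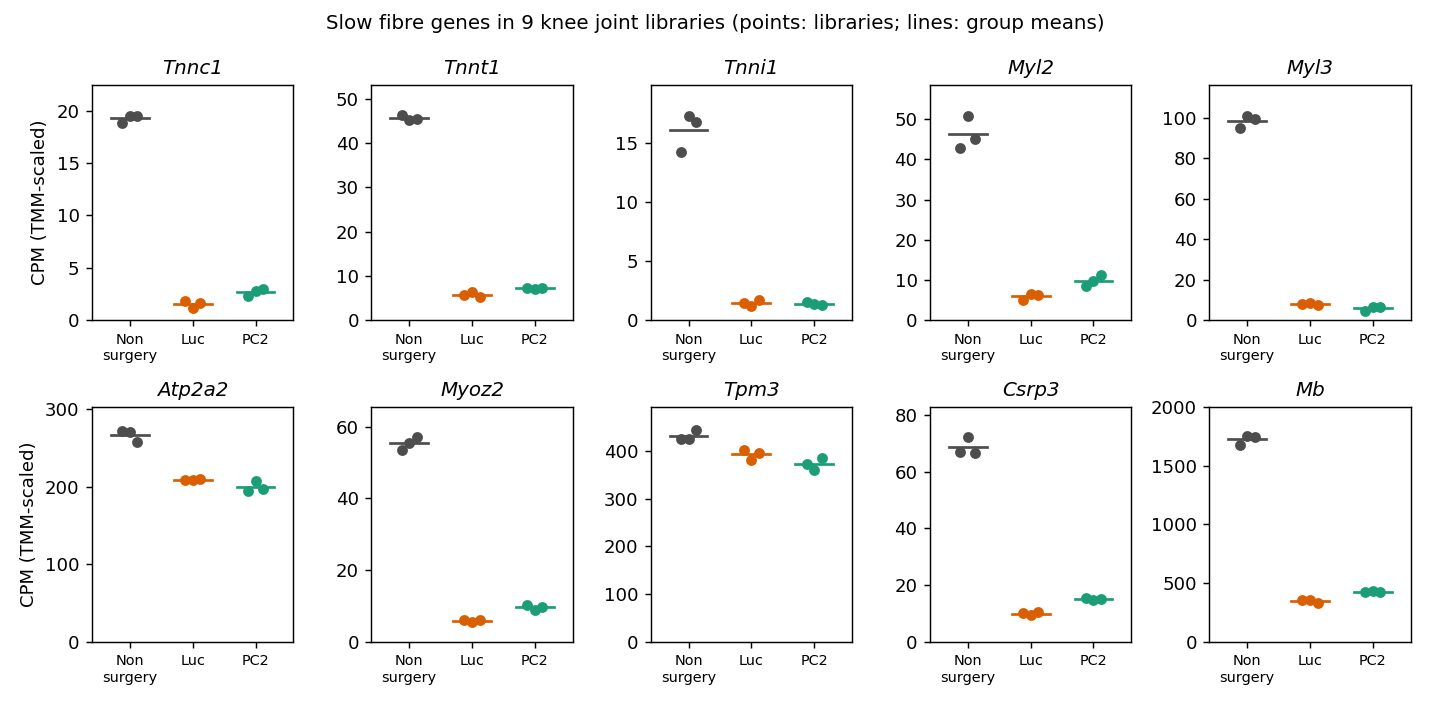
Level of each of the 10 slow fibre genes (y axis, CPM on TMM-scaled library sizes, starting at 0) in each library (points) of the 3 groups (x axis), with group means as lines. The Luc and PC2 points of 8 genes sit far below Non surgery, while Atp2a2 and Tpm3 stay within 1.34-fold of it, and the small fall of Tpm3 in Luc flips with scaling by library size only.

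Atp2a2 and Tpm3 are slow fibre genes that many other cells also use. Atp2a2 encodes SERCA2, the calcium pump of slow and cardiac muscle, and a second splice form serves most cell types (chromosome 5, 122453513 to 122502225). It had 271.8, 270.9 and 257.7 CPM in Non surgery libraries, 208.5, 208.9 and 210.0 in Luc and 194.8, 207.0 and 197.2 in PC2. Non surgery libraries were above all others, and the change in Luc was -0.35 ± 0.0347 (adjusted p = 1.7e-07, edgeR). With scaling by library size only it was -0.19 (adjusted p = 0.000146). Tpm3 encodes slow alpha-tropomyosin from an upstream start and cytoskeletal tropomyosins from a downstream start (chromosome 3, 90072649 to 90100902). Counts per gene do not separate the forms of either gene. Tpm3 had 426.1, 425.2 and 444.4 CPM in Non surgery libraries, 402.7, 380.9 and 396.2 in Luc and 372.4, 360.3 and 386.8 in PC2. Luc and PC2 libraries overlapped, and the change of Luc against Non surgery was -0.14 ± 0.0357 (adjusted p = 0.00383, edgeR), the value whose direction depended on scaling.

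Per kilobase of exon, the levels spanned a wide range, and their order changed between groups. In Non surgery libraries the order was Mb (1155 ± 27 CPM per kb, SD, n = 3), Tpm3 (71.0 ± 1.78), Myl3 (48.1 ± 1.45), Atp2a2 (43.9 ± 1.29), Csrp3 (25.7 ± 1.19), Myl2 (23.8 ± 2.15), Tnnt1 (20.7 ± 0.244), Tnnc1 (18.5 ± 0.347), Myoz2 (16.2 ± 0.5) and Tnni1 (4.46 ± 0.459). Only Csrp3 and Myl2 overlapped among neighbours in that order. In Luc libraries Mb (233 ± 9.24 CPM per kb), Tpm3 (64.6 ± 1.84) and Atp2a2 (34.4 ± 0.125) led, and the other 7 genes lay between 0.402 ± 0.0779 (Tnni1) and 3.87 ± 0.148 (Myl3). Neighbours that overlapped there were Myl3 and Csrp3, Myl2 and Tnnt1, and Myoz2 and Tnnc1. In PC2 libraries Myl3 (2.88 ± 0.519 CPM per kb) stood below Csrp3 (5.68 ± 0.139), Myl2 (5.05 ± 0.708) and Tnnt1 (3.28 ± 0.075), although it overlapped Tnnt1, and the run from Tnnt1 through Myl3 and Myoz2 to Tnnc1 overlapped pair by pair. Tnni1 was lowest of the 10 per kilobase in all 3 groups. Lengths join the exons of every annotated transcript (3600 bases for Tnni1, 1041 for Tnnc1), so the order depends on the annotation. Before division by length, Tnni1 and Tnnc1 had means of 16.1 and 19.3 CPM in Non surgery libraries. Their means were 1.45 and 1.51 CPM in Luc and 1.38 and 2.67 in PC2. The summed level of the 7 genes other than Mb, Tpm3 and Atp2a2 was 349.7 ± 11.9 CPM in Non surgery libraries, 38.4 ± 0.642 in Luc and 51.8 ± 2.21 in PC2 (a grouping made after the values were seen).

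**Figure D2:**
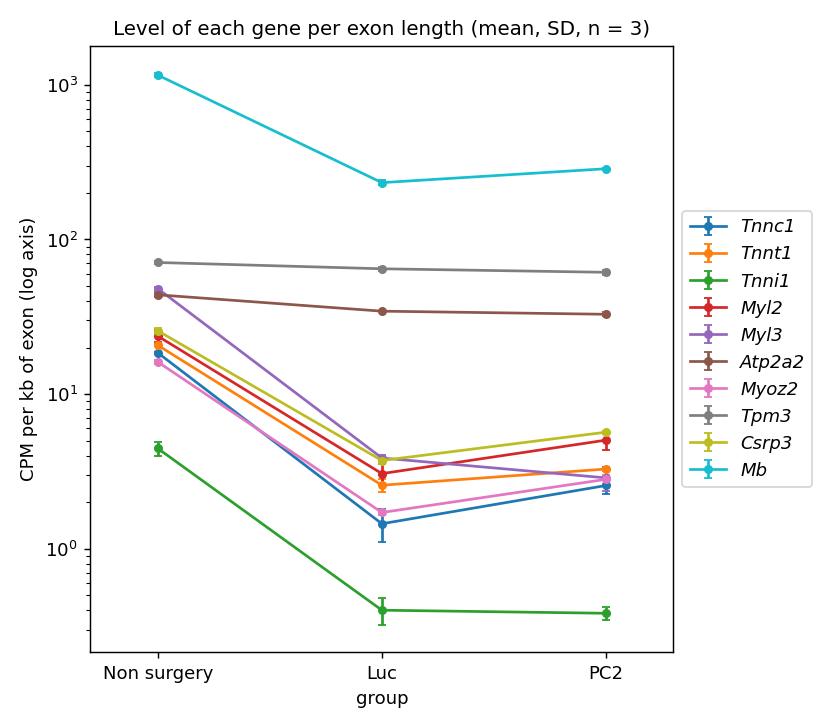
Level of each gene per kilobase of exon (y axis, log scale, CPM per kb; mean with SD, n = 3) in the 3 groups (x axis). Lines of 7 genes drop together from Non surgery to Luc, Mb drops from 1155 to 233, and the Myl3 line crosses those of Csrp3, Myl2 and Tnnt1.

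PC2 libraries were set against Luc libraries, which asks how joints given the PC2 virus differ from operated joints given the Luc virus. Of the 10 slow fibre genes, 6 were higher in the PC2 libraries (Tnnc1, Myl2, Myoz2, Csrp3, Tnnt1 and Mb), 1 was lower (Myl3) and 3 did not pass (Tnni1, Atp2a2 and Tpm3). No change reached 2-fold, which 3.31% of all genes tested did. Of all genes, 34.7% were called in either direction, 16.1% higher and 18.6% lower. PC2 libraries lay wholly above Luc in 6 of the 10 genes and in 23.3% of all genes, and wholly below in 2 (Myl3 and Atp2a2) and in 24.7% of all. The median log2 fold change was 0.323 over the 10 genes and 0.008 over all genes. Both groups were operated and injected, and the pools still cannot be told apart from the virus. Of the markers given above, all 4 of chondrocytes and 3 of the 4 of skeletal muscle were also called higher in the PC2 libraries (Ckm, chosen after its values were seen, had 0.078, adjusted p = 0.0555, edgeR), and their part in these changes was not tested. All 4 skeletal muscle markers were called higher with median-of-ratios scaling and in DESeq2.

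The largest rise was that of Tnnc1, at 0.82 ± 0.184 on the log2 scale (SE, adjusted p = 0.00257, edgeR), or 1.76-fold. Myl2 rose 1.65-fold (0.72 ± 0.127, adjusted p = 0.000363) and Myoz2 1.64-fold (0.71 ± 0.0841, adjusted p = 6.88e-06). Csrp3 rose 1.52-fold (0.61 ± 0.0688, adjusted p = 4.23e-06). Tnnt1 rose 1.27-fold (0.35 ± 0.0918, adjusted p = 0.00784) and Mb 1.23-fold (0.30 ± 0.0318, adjusted p = 2.14e-06). All of these had PC2 libraries that lay wholly above Luc. Myl3 fell by 0.43 ± 0.104 on the log2 scale (adjusted p = 0.0046, edgeR), with every PC2 library below every Luc library. Tnni1 differed by -0.06 ± 0.218 (adjusted p = 0.853), a wide error at 22 to 32 counts per Luc library, and it crossed 0 when single libraries were left out. Atp2a2 differed by -0.067 ± 0.0347 (adjusted p = 0.153) and Tpm3 by -0.076 ± 0.0357 (adjusted p = 0.114).

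Against Non surgery, PC2 libraries were lower in all 10 genes, 8 of them by at least 2-fold. Among all genes, 62.7% were called in either direction, 31.2% lower and 6.53% lower by at least 2-fold, and 32.5% had PC2 libraries that all lay below Non surgery. This comparison shares the Non surgery libraries with that of Luc, so the values are set side by side only. Mb stood at 24.8% of the Non surgery level in PC2 and 20.2% in Luc, Csrp3 at 22.1% and 14.5%, and Myl2 at 21.3% and 12.9%. Myoz2 stood at 17.4% and 10.6%, Tnnt1 at 15.9% and 12.5%, Tnnc1 at 13.9% and 7.89%. Tnni1 stood at 8.63% in PC2 and 9.02% in Luc, and Myl3 at 5.99% and 8.04%. Atp2a2 stood at 74.8% and 78.4%, and its log2 fold change in PC2, -0.42, was -0.26 with scaling by library size only (adjusted p = 5.56e-06, edgeR). Tpm3 stood at 86.4% and 91.1%, and its call in PC2 was lost with scaling by library size only (log2 fold change -0.053, adjusted p = 0.215).

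**Figure D3:**
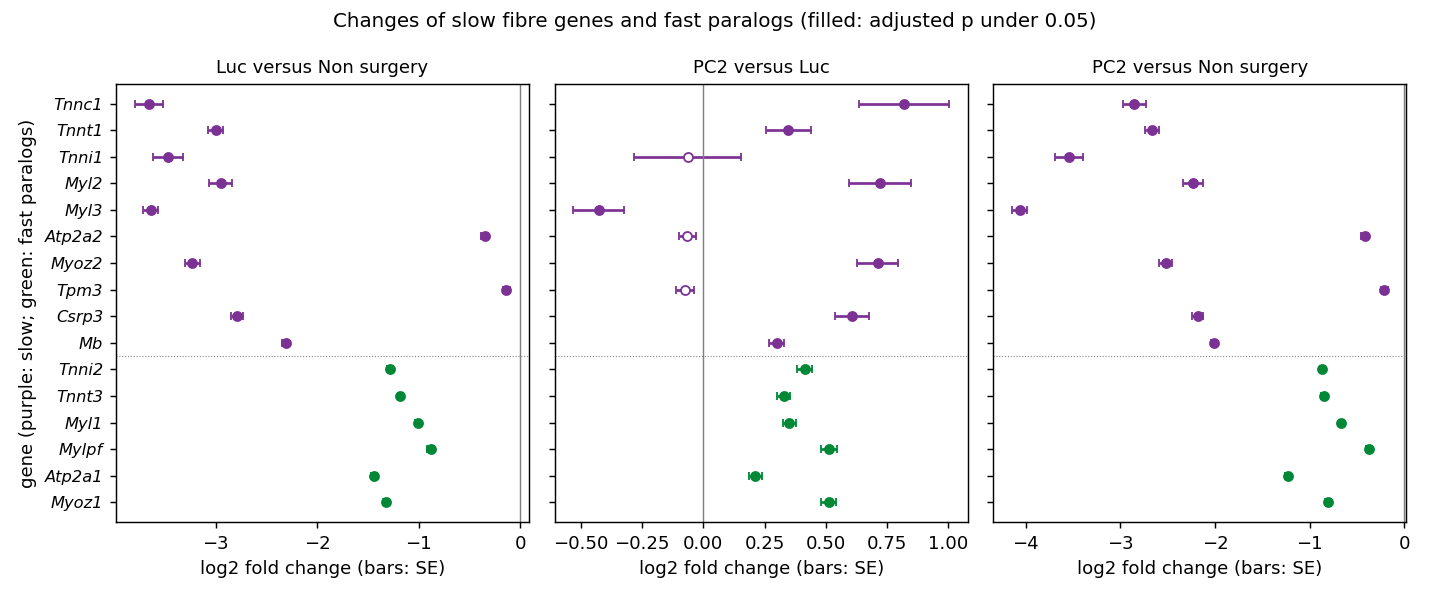
Log2 fold change (x axis, bars are SE) of the 10 slow fibre genes (purple) and the fast paralogs of 6 of them (green) in the 3 comparisons; filled points passed an adjusted p of 0.05. In PC2 versus Luc the slow genes spread from -0.43 (Myl3) to 0.82 (Tnnc1), while the 6 fast paralogs lie between 0.21 and 0.51; the fall of Tpm3 against Non surgery flips in Luc, and is not called in PC2, with scaling by library size only.

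Slow genes were also set against the paralog that fast fibres use, as a ratio of counts within each library, which does not depend on scaling. Tnnc1 was left out because its fast paralog, Tnnc2, shares 74% of its exon bases with Ube2c on the other strand. Reads of that stretch cannot be told apart without strand, and the sources used here do not give the strand setting. In 5 of the 6 pairs the ratio of slow to fast was lower in every Luc library than in every Non surgery library, and in Atp2a2/Atp2a1 it was higher. Ratios of other gene pairs were not computed, so no share over all pairs stands beside these counts. Among single genes, 29.8% had Luc libraries that all lay below Non surgery. With 3 libraries against 3, the smallest p an exact two-sided permutation test can give is 0.1, and all 6 pairs gave p = 0.1 (adjusted over the 6 pairs, 0.1). The fast paralogs fell themselves, by 0.88 (Mylpf) to 1.44 (Atp2a1) on the log2 scale.

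Slow Tnni1 against fast Tnni2 had log2 ratios of -7.17, -6.95 and -7.00 in Non surgery libraries, -9.25, -9.45 and -8.98 in Luc and -9.55, -9.71 and -9.82 in PC2. Slow counts thus made up 0.753% ± 0.0588 of the pair in Non surgery libraries, 0.165% ± 0.0276 in Luc and 0.119% ± 0.0115 in PC2 (SD, n = 3). For Myl3 against Myl1, the fast essential light chain, the ratios were -4.63, -4.59 and -4.56 in Non surgery libraries, -7.22, -7.19 and -7.22 in Luc and -8.32, -7.88 and -7.82 in PC2. For these 2 pairs the PC2 libraries were the lowest of all.

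For Tnnt1 against Tnnt3, fast troponin T, the ratios were -6.83, -6.87 and -6.92 in Non surgery libraries, -8.78, -8.56 and -8.75 in Luc and -8.67, -8.69 and -8.66 in PC2. Operated groups overlapped in this pair, with a difference of 0.021 ± 0.0687 (SE, exact permutation p = 0.9). Myl2 against Mylpf, the fast regulatory light chain, had ratios of -4.82, -4.65 and -4.83 in Non surgery libraries, -7.10, -6.74 and -6.68 in Luc and -6.81, -6.67 and -6.42 in PC2, and the operated groups overlapped as well (0.205 ± 0.173, exact permutation p = 0.4). That difference was 0.0772 without Luc replicate 1 and 0.0974 without PC2 replicate 3. Slow Myl2 made up 3.55% ± 0.252 of the pair in Non surgery libraries, 0.868% ± 0.128 in Luc and 1% ± 0.139 in PC2.

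Myoz2 against Myoz1, its fast Z-disc relative, had ratios of -3.45, -3.46 and -3.43 in Non surgery libraries, -5.34, -5.42 and -5.30 in Luc and -5.09, -5.25 and -5.13 in PC2. The PC2 libraries lay above Luc by 0.197 ± 0.0595 and far below Non surgery. Atp2a2 against Atp2a1, the calcium pump of fast fibres, went the other way, with ratios of -4.92, -5.05 and -5.02 in Non surgery libraries, -3.89, -3.90 and -3.92 in Luc and -4.20, -4.15 and -4.20 in PC2. Here Luc libraries were the highest, by 1.09 ± 0.0401 over Non surgery, and PC2 libraries stood between. Counts of Atp2a2 include the form that most cell types use, so this ratio need not describe muscle fibres alone. Part of the Atp2a1 exon bases (21.9%) is shared with Rabep2 on the other strand. Between PC2 and Luc, the ratio was lower without overlap in 3 pairs (Tnni1, Myl3 and Atp2a2), higher in 1 (Myoz2) and overlapping in 2, and the smallest p adjusted over the 6 pairs was 0.15 (exact permutation). No share over other gene pairs was computed. Among single genes, PC2 libraries lay wholly above Luc in 23.3% and wholly below in 24.7%.

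**Figure D4:**
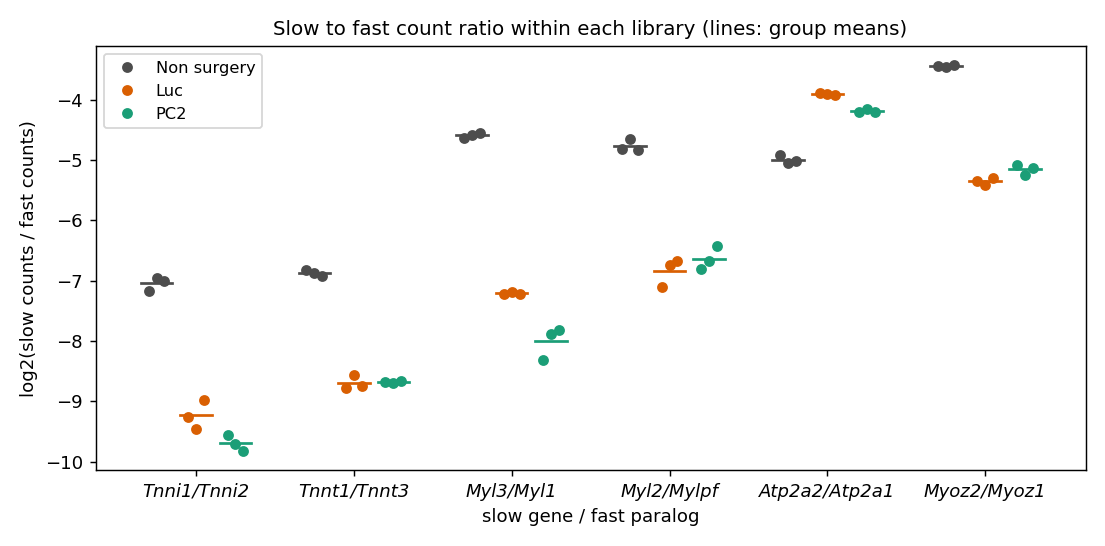
Log2 ratio of slow to fast counts (y axis) for 6 gene pairs (x axis) in each library (points, coloured by group; lines are group means). Non surgery points are highest in 5 pairs, and in Atp2a2/Atp2a1 they are lowest; PC2 points lie lowest in Tnni1/Tnni2 and Myl3/Myl1.

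Other genes of the slow and oxidative fibre programme, listed with earlier results of these data known, were lower in Luc libraries too. Against Non surgery, 10 of 13 such genes fell and 1 rose. The other 2 did not pass, and the median log2 fold change was -1.71. Among all genes tested, 27.7% were called lower and 31.1% higher. Myh7, the slow myosin heavy chain that pairs with Myl2 and Myl3, fell by 5.16 ± 0.0995 (SE). Myh2, the heavy chain of oxidative fast (type IIa) fibres, fell by 3.70 ± 0.0316, and Myom3, an M-band protein, changed by -3.23 ± 0.0604. The gene that rose was Pdlim1, at 0.20 (chosen after its values were seen). Between PC2 and Luc, 4 of the 13 rose and 3 fell (6 not passed, median 0.0963), against 16.1% higher and 18.6% lower among all genes. Myom3 rose by 1.44 ± 0.0646 and Myh2 by 1.13 ± 0.0291, both further than any of the 10 slow fibre genes of the set. Ankrd2, a stretch-responsive protein of slow fibres, fell by 0.87 ± 0.07 (adjusted p = 8.54e-08, edgeR). Also lower were Casq2 (-0.76), the slow and cardiac calsequestrin, and Fabp3 (-0.74), a fatty acid carrier of oxidative muscle (both chosen after their values were seen).

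Fast fibre and common sarcomere lists give the setting of the muscle as a whole. All 14 fast fibre genes fell in Luc (median -1.17), the most Myh1 (-2.13), Atp2a1 (-1.44) and Myoz1 (-1.32). So did all 12 common sarcomere genes (median -1.37), the most Actn2 (-2.50), Mybpc1 (-2.03) and Neb (-1.76). Among all genes tested, 27.7% were called lower. Between PC2 and Luc, 13 of the 14 fast genes rose and 1 (Pfkm, chosen after its values were seen) did not pass. Their median was 0.311, with the largest rises in Casq1 (0.67), Mylpf (0.51) and Myoz1 (0.51). Of the 12 common genes 8 rose and 2 fell (2 not passed, median 0.159), and with median-of-ratios scaling 10 rose and 1 fell. Among all genes tested, 16.1% were called higher and 18.6% lower. The median over the 10 slow fibre genes of the set, 0.323, was close to that of the fast list. The slow genes ranged from -0.43 to 0.82 and the fast list from 0.0047 to 0.67. The levels of the fast list summed to 53520 to 55360 CPM in Non surgery libraries, 23040 to 23360 in Luc and 27740 to 27790 in PC2, and the part of the amount of muscle in the changes of the slow genes was not tested.

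Regulators of fibre type were lower on the whole in Luc libraries. Of 21 regulators 14 fell and 2 rose (5 not passed, median -0.627), and with scaling by library size only 12 fell and 5 rose (median -0.466). Among all genes tested, 27.7% were called lower and 31.1% higher with the main scaling. Ppargc1a, a coactivator that promotes mitochondrial biogenesis and slow fibre genes, fell by 2.79 ± 0.0884 (SE), and the oestrogen-related receptors Esrrg and Esrrb changed by -2.45 ± 0.0982 and -2.32 ± 0.21. The rises were in Prox1 (1.97), which is needed for slow fibre identity and also marks lymphatic endothelium, and in Nfatc1 (0.52), a target of calcineurin (Nfatc1 chosen after its values were seen). Between PC2 and Luc, 8 rose, 5 fell and 8 did not pass, against 16.1% higher and 18.6% lower among all genes. Esrrg rose by 0.60 ± 0.114 (adjusted p = 0.000638, edgeR), Prox1 fell by 1.08 ± 0.144, and Fnip1, whose loss favours slow fibres in mice, fell by 0.56 ± 0.0888.

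**Figure D5:**
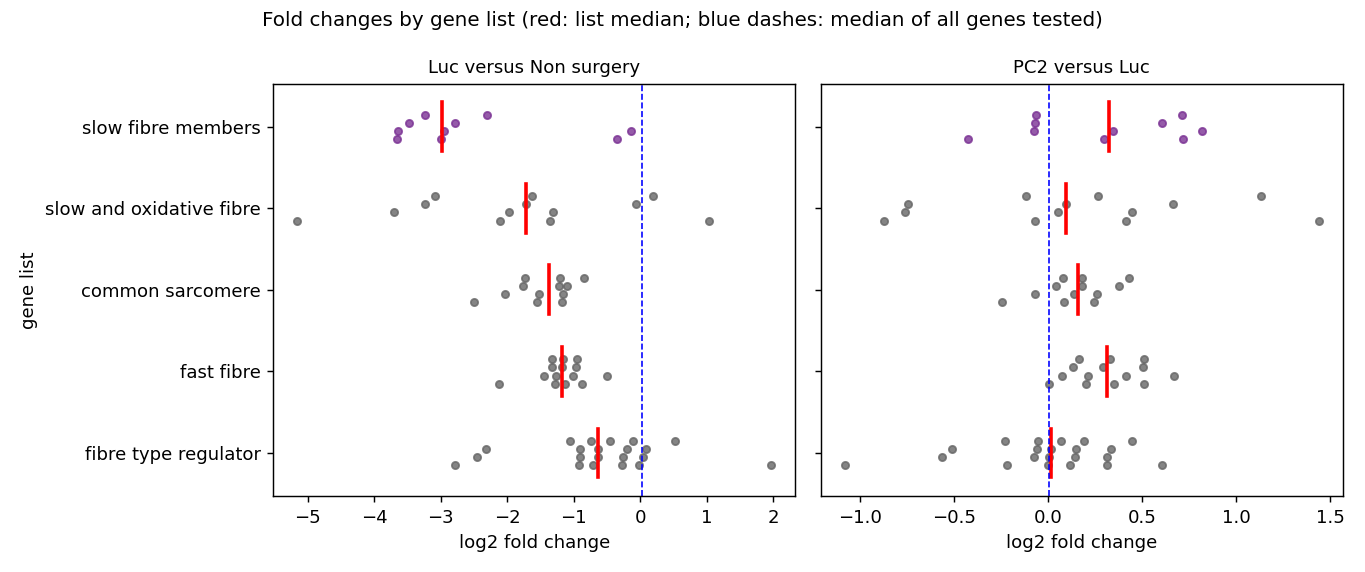
Log2 fold change (x axis) of each gene (points) in 5 lists (y axis) for Luc versus Non surgery and PC2 versus Luc; red bars are list medians and blue dashes the median of all genes tested. The slow fibre members have the lowest median in Luc versus Non surgery (-2.98), with Atp2a2 and Tpm3 set apart near 0 (Tpm3 turns above 0 with scaling by library size only).

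Genes whose pattern over the 9 libraries lay nearest to the mean of the 10 slow fibre genes were sought among 11900 named genes with at least 5 CPM in their highest group. Likeness was the Euclidean distance between log2 CPM profiles, each centred on its own mean. The nearest were Actn2 (0.185), the sarcomeric alpha-actinin of all fibres, Lpin1 (0.266), a phosphatidate phosphatase, Fmo2 (0.329), a monooxygenase, Pm20d2 (0.372) and Gpt2 (0.377), a mitochondrial alanine transaminase. Actn2 fell from 778 CPM in Non surgery to 138 in Luc and stood at 156 in PC2. Its log2 fold change in Luc was -2.5, against a median of -2.98 over the 10 genes. The mean profile includes Atp2a2 and Tpm3, which moved little, so genes near it fell less than most of the 10. Among the slow fibre genes themselves, Mb (0.36) and Csrp3 (0.429) lay nearest to the mean they share in, and Tpm3 (3.17), Atp2a2 (2.87) and Myl3 (2.26) farthest. The profiles rest on 3 pools, so many genes with the same order of groups lie close to each other.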

How the data were processed

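Per the labels' protocols, RNA of each group was extracted with TRIzol, mixed, made into libraries with the NEBNext Ultra RNA kit and sequenced as 3 technical repeats. The authors deposited raw read counts per Ensembl gene ID in 9 tables of 53379 IDs and 5 HTSeq summary lines. HISAT2, HTSeq, DESeq2 and the mm10 build are named in the submitters' processing notes. The sources used here give no versions, annotation release, strand setting or filters. Reads outside genes (7.29% to 9.25% per library) and ambiguous reads (5.72% to 6.65%) are summary lines and stayed out of library sizes and tests.

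Symbols, positions and exon lengths came from GENCODE M21, which holds 53274 of the IDs. All 9 libraries entered 1 edgeR 4.0.16 (R 4.3.3) quasi-likelihood fit (group as the only factor, TMM scaling, filterByExpr with a minimum count of 10), and 3 two-sided contrasts were tested. A standard error is the size of the log2 change divided by the root of its F statistic. Slow to fast ratios used counts plus 0.5 and exact permutation tests (scipy 1.17.1). Pairs of libraries within a group differed beyond counting noise (chi-square per degree of freedom 3.94 to 8.67). Each was treated as a separate technical repeat, and this check cannot tell at which step the repeats were split.

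Members and lists were chosen with earlier results of these data known. Named are all 10 members, the fast paralogs of 6, up to 3 largest changes per list and comparison and the 5 nearest profiles; other names are marked. Marker lists of embryonic and smooth muscle were measured as well. The fit was tested on simulated data. Alternatives were other scalings, no filter, DESeq2 1.42.0, fits of 2 groups, a replicate block and leaving out each library. Promoter sequences are from RefSeq (GRCm38.p6). The gene that the PC2 virus carries is not reported here, so the PC2 label was not checked by it.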

Additional observations from a re-analysis of the deposited data

How the results depend on the processing

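The counts of slow fibre genes that passed were 10, 7 and 10 of 10 in Luc versus Non surgery, PC2 versus Luc and PC2 versus Non surgery. Of all genes tested, 58.8%, 34.7% and 62.7% passed in these comparisons. Under 12 alternatives for each comparison the counts of slow fibre genes stayed at 9 to 10, 7 to 7 and 9 to 10. With the replicate block they were 10, 7 and 10; the replicate numbers do not pair the libraries (correlation of deviations -0.0274 to 0.0567 over 9 same-numbered pairs), and the block changed no call of a slow fibre gene. With library size as the scale, the all-gene median of Luc versus Non surgery shifted from 0.0249 to 0.185 (log2). Genes past 2-fold went from 1648 up and 1104 down to 2065 up and 824 down, and in PC2 versus Non surgery from 1718 up and 1142 down to 2121 up and 834 down. Under it Tpm3 had 0.0247 in Luc versus Non surgery in place of a fall, and its call against Non surgery in PC2 was lost. Tnni1 in PC2 versus Luc, which did not pass, turned to 0.0791 without Luc replicate 3 and to 0.000373 without PC2 replicate 3 (range -0.197 to 0.0791). The Tnnt1/Tnnt3 ratio in PC2 versus Luc, whose groups overlap, ranged from -0.0192 (without Luc replicate 1) to 0.0891 (without Luc replicate 2) and was -0.00565 without Luc replicate 3. No other fold change of the 10 genes changed direction or call under the alternatives run. No other slow to fast ratio changed direction, and only the size of the ratio differences was recomputed, not their p. Depth limits the precision of Tnnc1 (21 to 35 counts per Luc library) and Tnni1 (22 to 32). No technical repeat stands for a mouse, so no alternative tests differences between animals.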

Other observations

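The 2 light chains of slow myosin, Myl3 and Myl2, parted from each other over the 3 groups (a comparison chosen after the values were seen, with no test). The log2 ratio of Myl3 to Myl2 counts was 1.15, 0.984 and 1.14 in Non surgery libraries, 0.651, 0.318 and 0.266 in Luc and -0.878, -0.579 and -0.787 in PC2. Myl3 had more counts than Myl2 in all 6 Non surgery and Luc libraries and fewer in all 3 PC2 libraries. The step from Luc to PC2 was -1.16, and leaving out single libraries gave -1.24 to -1.04.

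Genes of embryonic and regenerating muscle, which share some isoforms with slow fibres, were low in all groups. Of 6 such genes 5 fell in Luc against Non surgery (4 with scaling by library size only, 3 in DESeq2), with Chrna1, a subunit of the fetal and adult acetylcholine receptor, at -2.07, and the embryonic and neonatal myosins Myh3 and Myh8 at -1.96 and -1.86. Between PC2 and Luc 0 of the 6 passed in edgeR and 0 in DESeq2, and 1 had an unadjusted p under 0.05. Smooth muscle markers were counted as well: of 5, 3 rose and 1 fell in Luc (3 and 0 with scaling by library size only, 2 and 1 in DESeq2), and all 5 rose between PC2 and Luc, led by Cnn1 (1.42), Lmod1 (0.94) and Myh11 (0.74). Of the 7 cardiac markers tested, Myh6 (-1.93) and Ryr2 (-1.24) fell and Myl4 (1.43) and Actc1 (0.57) rose in Luc, and Ryr2 (1.66) and Actc1 (0.32) rose between Luc and PC2. Beside these counts, 27.7% of all genes tested were called lower and 31.1% higher in Luc against Non surgery. Between PC2 and Luc 16.1% were called higher and 18.6% lower.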
